A study of Homo sapiens with 6 samples.

Results

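The integrin subunit genes ITGA2, ITGA3, ITGA5, ITGA6, ITGAV, ITGB1, ITGB3, ITGB4, ITGB5 and ITGB8 were described in U87 glioma cells. A probe set was taken as a member where the platform annotation named 1 of these genes and no other, which gave 42 probe sets for the 10 genes, of 49293 probe sets and 18132 genes in all. RNA came from 3 samples that overexpressed the microRNA miR-151a and 3 samples that overexpressed a negative control microRNA (miR-NC), all of the established human glioblastoma line U87. Each sample was hybridised to a 1-colour Affymetrix array after biotin labelling. The sources used here do not give how the microRNA was delivered, which of its arms was raised or for how long. No label states that replicates were grown apart, and the p-values therefore measure a spread between these samples that may be technical. miR-151a lies within the gene of focal adhesion kinase, PTK2, which acts below integrins.

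Integrins are cell surface receptors made of 1 alpha and 1 beta subunit that bind the extracellular matrix outside the cell and the actin skeleton inside it. The beta subunit ITGB1 joins many alpha subunits: with ITGA2 it binds collagen, with ITGA3 or ITGA6 laminin, and with ITGA5 fibronectin. ITGB4 pairs with ITGA6 in a laminin receptor of hemidesmosomes. ITGAV pairs with ITGB1, ITGB3, ITGB5 or ITGB8 in receptors that read the RGD motif (arginine, glycine, aspartate) of vitronectin, fibronectin and latent TGF-beta. Glioma cells use several of these receptors to attach and to invade.

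The 6 arrays had close distributions, with median intensities from 57.1 to 58.6 and lower quartiles from 14.9 to 15.6. Precision is limited by how many arrays there are. The integrin probe sets had a median SD within groups of 0.0776 in log2 units, beside 0.0803 for all probe sets. A change in a bulk RNA level cannot tell fewer cells that make a transcript from less of it per cell. For beta-actin, 3′ control probes over 5′ control probes gave a log2 ratio of 0.27 to 0.30 with miR-151a and 0.37 to 0.43 with miR-NC; for GAPDH it was 0.045 to 0.052 and 0.029 to 0.049. The part of this difference in the results was not tested. Of the glioma and glial markers, VIM (vimentin) averaged 19170 with miR-151a and 19019 with miR-NC and CD44 5687 and 6332. The astrocyte marker S100B was at 19.2 and 19.0, near the lower quartile, and the astrocyte marker GFAP at 61.4 and 63.2, near the median. CHI3L1 averaged 252 and 274, OLIG2 63.8 and 57.7 and SOX2 48.0 and 48.1. These genes were named after their values were seen. One of the 8 markers passed, NES (nestin), which was lower (log2 fold change -0.31), where 15.4% of all genes passed in either direction. Of 6 measured leukocyte markers, 2 lay below the lower quartile, and the summed intensity was 107 to 113 with miR-151a and 103 to 107 with miR-NC. The leukocyte integrin subunit ITGAM averaged 22.7 ± 4.02 with miR-151a and 16.6 ± 1.21 with miR-NC, without overlap (SD, n = 3 each; log2 fold change 0.42, adjusted p = 0.0576 in limma over all genes), and 2 of its 3 probe sets passed as higher over all probe sets. PTPRC, which marks all leukocytes, averaged 7.53 and 8.65 with miR-151a and miR-NC. Summed intensities with miR-151a and with miR-NC were 228 to 238 and 236 to 255 for 5 endothelial, 134 to 145 and 137 to 142 for 4 platelet, and 158 to 182 and 155 to 177 for 5 epithelial markers. The smallest p-values of these lists belonged to PECAM1 (log2 fold change -0.29) and CDH5 (-0.15), GP1BA (-0.24) and ITGA2B (0.12), and KRT5 (0.16) and KRT18 (0.06). The part of other cells in the results was not tested. By the brightest probe set, 0 genes of these 4 lists passed in limma (1 leukocyte gene higher and 1 endothelial gene lower at an unadjusted p under 0.05).

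ITGB1 and the alpha subunits ITGA2, ITGA3, ITGA5 and ITGA6 each held at least 1 probe set that passed as lower with miR-151a. ITGAV, ITGB3, ITGB4, ITGB5 and ITGB8 held none. Differences are given as log2 fold changes of log2(intensity + 1), miR-151a minus miR-NC, and "passed" means a Benjamini-Hochberg adjusted p under 0.05 in limma over all probe sets. Of the 42 member probe sets, 9 fell and 1 rose. That is 21.4% lower and 2.38% higher, where 7.27% of all probe sets were called lower, 6.81% higher and 14.1% either way. The 3 values with miR-151a lay below the 3 values with miR-NC for 18 of the 42 probe sets and above them for 2, against a background of 18.6% below, 15.3% above and 33.8% in either direction. The median change was -0.04 over the member probe sets and -0.01 over all probe sets. The count of 9 falls was 5 without miR-NC replicate 2, and the count of rises was 0 without miR-151a replicate 2 or 3 (3 rises at an unadjusted p under 0.05 with all samples). Without miR-NC replicate 1 the count stayed at 1, but the called probe set was then one of ITGB3 (11755065_a_at) in place of that of ITGAV.

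**Figure D1:**
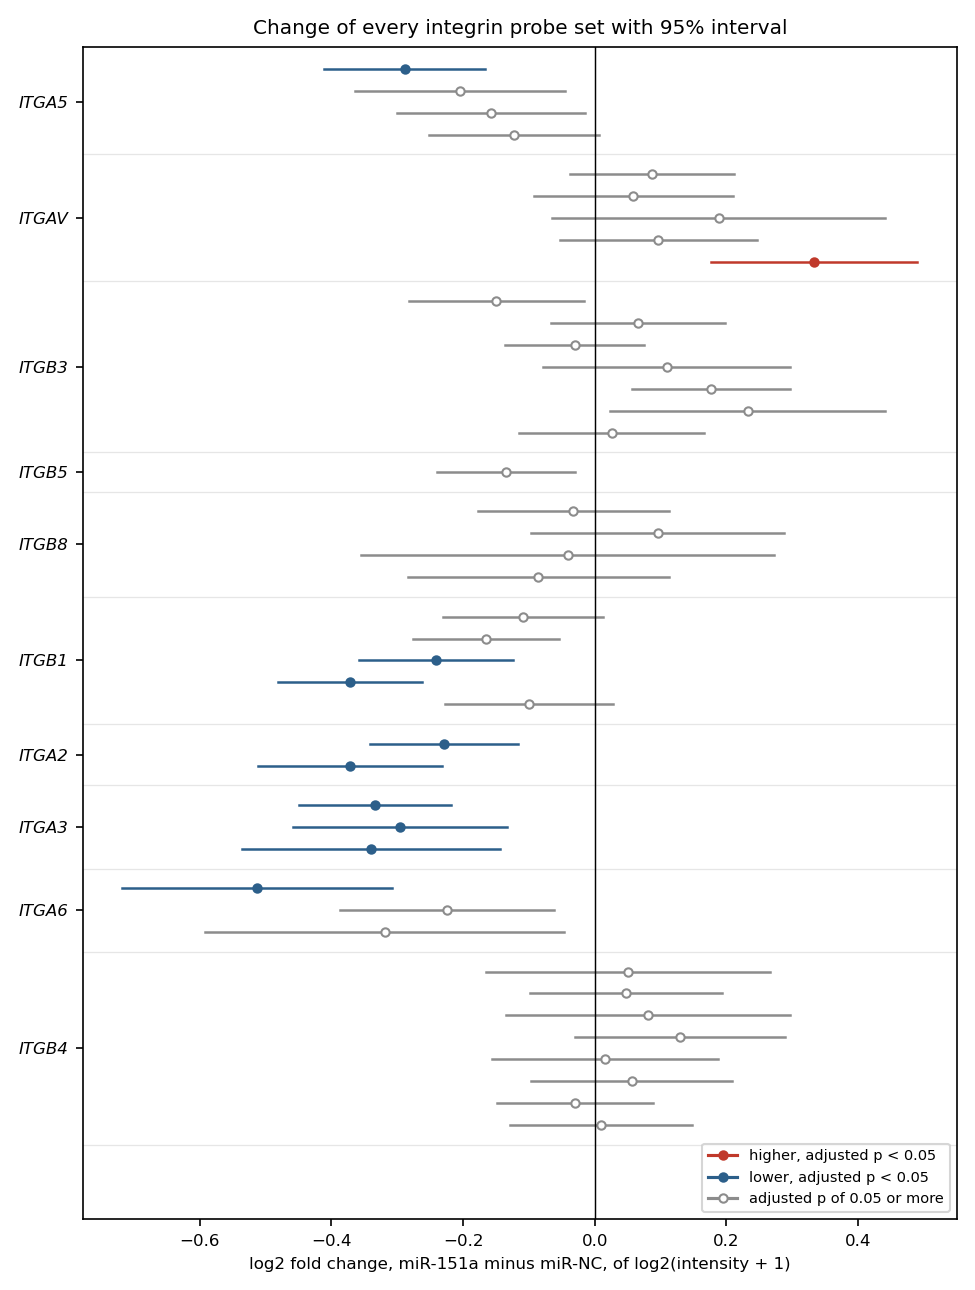
Log2 fold change (miR-151a minus miR-NC) of each of the 42 integrin probe sets, with its 95% interval from limma; within a gene, probe sets run from bright to dim by their miR-NC mean. All 17 probe sets of ITGA5, ITGB1, ITGA2, ITGA3 and ITGA6 lie left of 0 and 9 of them passed, while the single called rise belongs to the dimmest of 5 ITGAV probe sets.

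All 17 probe sets of ITGB1, ITGA2, ITGA3, ITGA5 and ITGA6 had negative log2 fold changes, 9 passed, and in 15 the groups did not overlap. Their median change was -0.24. Of the 25 probe sets of ITGAV, ITGB3, ITGB4, ITGB5 and ITGB8, 18 had positive changes, 1 passed as higher and 0 as lower (2 lower at an unadjusted p under 0.05 in limma), and the median was 0.06. These 2 sets of genes were put together after their values were seen, and the difference between them was not tested. With 1 probe set a gene, the brightest, 4 of the 10 genes fell (ITGA2, ITGA3, ITGA5 and ITGA6) and 0 rose in limma over all genes (0 also at an unadjusted p under 0.05), where 8.11% of all genes were called lower, 7.27% higher and 15.4% either way. The miR-151a values lay wholly below the miR-NC values for 6 of the 10 genes, against 19.4% of all genes below and 34.5% in either direction. By the brightest probe set ITGB1 was at -0.11 and ITGB5 at -0.13, and neither passed (adjusted p = 0.195 and 0.0661 in limma over all genes). When the probe sets of a gene were averaged, ITGB1 at -0.20 (adjusted p = 0.00774) and ITGB5 at -0.13 (adjusted p = 0.034) passed as well in limma. ITGB5 has 1 probe set, so its own values were the same and only the fit over all genes differed.

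RefSeq promoter sequence (GRCh38.p14) was found for 7 of the 10 genes. The 250 bases before the transcription start are shown for genes with a called fall that the RefSeq table holds and, beside them, for ITGAV, which held the called rise. ITGA6 has 2 listed starts, both shown; for ITGB1 and ITGAV the first of 2 listed starts is shown. Capitals mark GC boxes (GGGCGG, bound by SP1-type factors) and TATA boxes (TATAAA), searched on both strands.
ITGB1, chr10:32958231-32958480, minus strand: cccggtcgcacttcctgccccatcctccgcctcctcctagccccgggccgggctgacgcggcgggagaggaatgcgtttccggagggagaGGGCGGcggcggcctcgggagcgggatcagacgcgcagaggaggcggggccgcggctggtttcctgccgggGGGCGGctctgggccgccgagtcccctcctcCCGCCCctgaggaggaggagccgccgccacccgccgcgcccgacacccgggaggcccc
ITGA2, chr5:52989102-52989351, plus strand: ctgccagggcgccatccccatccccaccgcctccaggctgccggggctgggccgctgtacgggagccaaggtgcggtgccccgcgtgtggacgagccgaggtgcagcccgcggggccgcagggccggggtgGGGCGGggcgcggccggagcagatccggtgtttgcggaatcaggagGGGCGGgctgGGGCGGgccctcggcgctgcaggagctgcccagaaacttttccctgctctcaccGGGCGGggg
ITGA6, first start, chr2:172427086-172427335, plus strand: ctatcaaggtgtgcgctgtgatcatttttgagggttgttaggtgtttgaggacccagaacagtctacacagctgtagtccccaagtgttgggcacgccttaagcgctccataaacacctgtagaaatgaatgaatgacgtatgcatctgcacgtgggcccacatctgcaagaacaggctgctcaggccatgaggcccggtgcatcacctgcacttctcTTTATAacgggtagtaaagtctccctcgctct
ITGA6, other start, chr2:172427336-172427585, plus strand: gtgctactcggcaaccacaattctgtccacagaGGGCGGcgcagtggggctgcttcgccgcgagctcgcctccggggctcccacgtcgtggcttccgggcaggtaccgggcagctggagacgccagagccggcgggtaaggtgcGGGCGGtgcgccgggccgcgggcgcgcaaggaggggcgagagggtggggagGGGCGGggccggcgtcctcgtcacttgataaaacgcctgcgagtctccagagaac
ITGA5, chr12:54419267-54419516, minus strand: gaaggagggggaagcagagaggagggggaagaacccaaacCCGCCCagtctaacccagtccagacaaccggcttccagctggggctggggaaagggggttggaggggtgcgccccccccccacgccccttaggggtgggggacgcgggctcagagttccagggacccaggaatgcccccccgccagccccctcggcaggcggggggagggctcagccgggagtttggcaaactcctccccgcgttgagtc
ITGAV, chr2:186589806-186590055, plus strand: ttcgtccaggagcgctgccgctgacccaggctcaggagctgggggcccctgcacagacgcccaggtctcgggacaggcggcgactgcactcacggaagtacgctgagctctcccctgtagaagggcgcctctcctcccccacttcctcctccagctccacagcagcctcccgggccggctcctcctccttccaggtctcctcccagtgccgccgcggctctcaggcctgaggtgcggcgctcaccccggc

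GC boxes numbered 4 in the ITGA2 window, 3 in the ITGB1 window, 3 in the window of the other ITGA6 start and 1 in the ITGA5 window, and the ITGAV window held 0. The first ITGA6 window held 1 TATA box and 0 GC boxes. The window of the other ITGB1 start held 3 TATA box matches, 2 of them overlapping on opposite strands, and 0 GC boxes. Of 35116 such windows over all genes, 42.64% held at least 1 GC box and 10.72% a TATA box. An AP-1 site (TGANTCA, both strands), present in 6.57% of all windows, was found in 0 of the 12 windows of the 7 genes. Among genes without a called probe set, ITGB8 had 2 GC boxes in its window and ITGB5 had 2, 0 and 3 in its 3 windows, so GC boxes were found both in genes that fell and in genes that were not called. These matches describe letters and not bound sites. Guanine and cytosine made up 78.4% of the ITGB1 window, 76.4% of that of ITGA2, 70.0% of that of ITGA5 and 70.8% of that of ITGAV.

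ITGB1, the beta subunit shared by the collagen, laminin and fibronectin receptors, had the member probe set with the smallest p. Probe set 11737219_a_at had intensities of 785, 782 and 809.9 with miR-151a and 1006, 1032 and 1039 with miR-NC. The groups were far apart for their spread, and the value fell by 22.7% (log2 fold change -0.37, 95% interval -0.48 to -0.26; adjusted p = 0.0023 in limma over all probe sets). Probe set 11715728_a_at had 2183, 2146 and 2117 with miR-151a and 2487, 2651 and 2483 with miR-NC. It fell by 15.4% (adjusted p = 0.018 in limma), a call lost when miR-151a replicate 2, miR-151a replicate 3 or miR-NC replicate 2 was left out (adjusted p = 0.050, 0.0595 and 0.0697 in limma). The brightest probe set, 11758276_s_at, had 7651, 7738 and 7484 with miR-151a and 8640.4, 7956 and 8084 with miR-NC. All its miR-151a values lay below the miR-NC values, and the difference was -0.11 in log2 units (95% interval -0.23 to 0.01, adjusted p = 0.224 in limma). Probe set 11758189_s_at, at -0.17, had an adjusted p of 0.057 in limma, and the dim probe set 11742048_at was at -0.10. The probe sets of ITGB1 thus lay on 1 side of 0 with sizes from -0.37 to -0.10, and in 5 of 5 the groups did not overlap. Endings _s_at and _x_at are the array maker's marks for probe sets that can match transcripts of more than 1 kind, and _a_at marks probe sets that match several transcripts of a gene.

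The genes whose 6-sample pattern was most like that of the ITGB1 probe set 11737219_a_at, by Pearson correlation of log2 values over the 6 samples, were PLOD2 (r = 0.9997), CENPA (r = 0.9993) and GPSM2 (r = 0.9993). Both groups enter this correlation, so it is largely the shared difference between them. PLOD2, a collagen lysyl hydroxylase, had a log2 fold change of -0.17, CENPA, the centromeric histone variant, -0.43, and GPSM2, a spindle orientation factor, -0.40.

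ITGA2, the alpha subunit of the collagen receptor, fell in 2 of 2 probe sets. Probe set 11743618_at had intensities of 404, 429 and 391 with miR-151a and 559.6, 512 and 513 with miR-NC. It fell by 22.7% (log2 fold change -0.37, 95% interval -0.51 to -0.23; adjusted p = 0.0066 in limma over all probe sets). The brighter probe set 11743617_at had 974, 1016 and 967 with miR-151a and 1144, 1139 and 1183 with miR-NC. The groups did not overlap in either probe set. The brighter one fell by 14.7% (adjusted p = 0.019 in limma), and the call was lost without any sample other than miR-151a replicate 2, with adjusted p-values up to 0.070.

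ITGA3, an alpha subunit of laminin receptors, fell in 3 of 3 probe sets by similar amounts. The brightest, 11756790_a_at, had intensities of 1833, 1877 and 1772 with miR-151a and 2367, 2284 and 2259 with miR-NC. It fell by 20.7% (log2 fold change -0.33, 95% interval -0.45 to -0.22; adjusted p = 0.0046 in limma) and remained past the threshold without any 1 sample. Probe set 11739145_a_at had 185, 217 and 217 with miR-151a and 256, 249.5 and 253 with miR-NC, and 11749035_a_at had 81.9, 91.2 and 105 with miR-151a and 119, 117 and 115 with miR-NC. The 3 probe sets differed in level and agreed in size, with log2 fold changes of -0.30 and -0.34 for these dimmer ones (adjusted p = 0.029 and 0.034 in limma). Their calls were lost when any single miR-NC replicate (1, 2 or 3) was left out, and that of 11749035_a_at also without miR-151a replicate 1 or 2, with adjusted p-values up to 0.087 and 0.099.

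ITGA6, the other laminin-binding alpha subunit, had the most negative log2 fold change of the 42 probe sets at a low level. Probe set 11739861_s_at had intensities of 31.8, 34.8 and 41.2 with miR-151a and 49.8, 51.5 and 53.0 with miR-NC. It fell by 29.9% (log2 fold change -0.51, 95% interval -0.72 to -0.31; adjusted p = 0.0083 in limma over all probe sets), and every miR-151a value lay below every miR-NC value. With a pseudocount of 32 the log2 fold change was -0.30, since added counts shrink the change of a dim probe set. The other probe sets lay near or below the lower quartile of the arrays. Probe set 11739860_a_at averaged 14.2 ± 0.820 with miR-151a and 16.8 ± 1.35 with miR-NC (SD, n = 3 each; log2 fold change -0.22, adjusted p = 0.0745 in limma), and 11736029_a_at averaged 7.64 ± 0.818 and 9.85 ± 1.76 (SD, n = 3 each; -0.32, adjusted p = 0.12 in limma).

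ITGB4, the partner of ITGA6 in hemidesmosomes, had 8 probe sets, of which 0 passed in limma (0 also at an unadjusted p under 0.05). Its brightest probe set, 11726794_x_at, had intensities of 58.3, 50.3 and 60.03 with miR-151a and 47.9, 58.6 and 56.3 with miR-NC. The groups overlapped in this and in the other seven probe sets. Log2 fold changes ran from -0.03 to 0.13, and the 95% interval of the brightest was -0.17 to 0.27. Mean intensities over the 8 probe sets ran from 13.5 to 56.2 with miR-151a and from 13.5 to 54.3 with miR-NC, all below the median of the arrays. A fall in measured intensity of the size seen for ITGA3 lay outside the 95% intervals of all 8 probe sets. Whether the low level hid a change of the transcript was not tested.

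ITGA5, the alpha subunit of the fibronectin receptor, fell in 1 of 4 probe sets, and the other three had negative changes that did not pass. Probe set 11715703_s_at, the brightest, had intensities of 642, 697 and 653 with miR-151a and 829.8, 793 and 811 with miR-NC. It fell by 18.1% (log2 fold change -0.29, 95% interval -0.41 to -0.17; adjusted p = 0.011 in limma over all probe sets), and the call held without any 1 sample. Probe set 11715704_x_at had 457, 510.1 and 488 with miR-151a and 591, 515 and 572 with miR-NC, a log2 fold change of -0.20 (adjusted p = 0.093 in limma). Probe sets 11715702_at and 11748449_a_at were at -0.16 and -0.12, the dimmest with overlapping groups. Averaged over its probe sets, ITGA5 was at -0.19 (adjusted p = 0.016 in limma over all genes).

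ITGAV, the alpha subunit of the RGD receptors, had positive changes in 5 of 5 probe sets, of which 1 rose. Probe set 11716301_a_at had intensities of 95.7, 109.7 and 112 with miR-151a and 80.9, 85.3 and 84.3 with miR-NC. It rose by 26.0% (log2 fold change 0.33, 95% interval 0.18 to 0.49; adjusted p = 0.016 in limma), a call lost when miR-151a replicate 2, miR-151a replicate 3 or miR-NC replicate 1 was left out (adjusted p = 0.0538, 0.0551 and 0.0595 in limma). The brightest probe set, 11757515_s_at, had 873, 863 and 826 with miR-151a and 833, 815 and 766 with miR-NC. Its groups overlapped, at 0.09 in log2 units (95% interval -0.04 to 0.21, adjusted p = 0.353 in limma). The other three probe sets lay between 0.06 and 0.19 with overlapping groups. The called probe set was the dimmest of the gene, and averaged over probe sets ITGAV was at 0.15 (adjusted p = 0.057 in limma over all genes).

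None of the probe sets of ITGB3, ITGB5 and ITGB8, beta partners of ITGAV, passed in limma. ITGB3, which with ITGAV forms a vitronectin receptor, had 7 probe sets whose directions differed, and 0 passed in limma (2 higher and 1 lower at an unadjusted p under 0.05). Probe set 11735066_at had intensities of 225, 218 and 228 with miR-151a and 236, 245 and 264 with miR-NC, with miR-151a below miR-NC throughout (log2 fold change -0.15, adjusted p = 0.14 in limma). Probe set 11735064_at had 88.3, 94.2 and 95.4 with miR-151a and 80.1, 83.5 and 82.0 with miR-NC, with miR-151a above (0.18, adjusted p = 0.061 in limma). Probe set 11735064_at passed with quantile normalization, a pseudocount of 32, array weights and a filter on dim probe sets (adjusted p = 0.0447, 0.0223, 0.0494 and 0.0365 in limma). The largest difference of the gene, 0.23 for 11755065_a_at, passed with a variance trend and robust fit and without miR-NC replicate 1 (adjusted p = 0.0483 and 0.0271 in limma), and 11735066_at passed as lower with the trend and robust fit (adjusted p = 0.0477 in limma). By its mean over the 6 samples 11735063_a_at was the brightest, with overlapping groups (log2 fold change 0.07, adjusted p = 0.52 in limma). Probe sets 11735062_at, 11735065_a_at and 11761491_at were at -0.03, 0.11 and 0.03 (adjusted p = 0.727, 0.441 and 0.833 in limma). The gene's probe sets therefore give no single direction, and whether their difference exceeds the spread was not tested.

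ITGB5, a beta partner of ITGAV that also binds vitronectin, had 1 probe set, 11754810_a_at, with intensities of 517, 523 and 518 with miR-151a and 566, 569 and 577 with miR-NC. The groups did not overlap and their spread was small, 519.6 ± 3.42 and 571 ± 5.89 (SD, n = 3 each). The log2 fold change was -0.13 (95% interval -0.24 to -0.03; adjusted p = 0.091 in limma over all probe sets). It passed with a pseudocount of 32 and with a variance trend and robust fit (adjusted p = 0.0089 and 0.015 in limma). ITGB8, which with ITGAV binds latent TGF-beta, had 4 dim probe sets with overlapping groups, of which 0 passed in limma (0 also at an unadjusted p under 0.05). Its brightest, 11722503_at, had 24.5, 26.2 and 26.5 with miR-151a and 27.6, 27.2 and 24.4 with miR-NC (log2 fold change -0.03, 95% interval -0.18 to 0.11). Intervals of the dimmer ITGB8 probe sets were wider, such as -0.35 to 0.27 for 11749103_a_at. Whether the low level hid a change of the ITGB8 transcript was not tested.

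**Figure D2:**
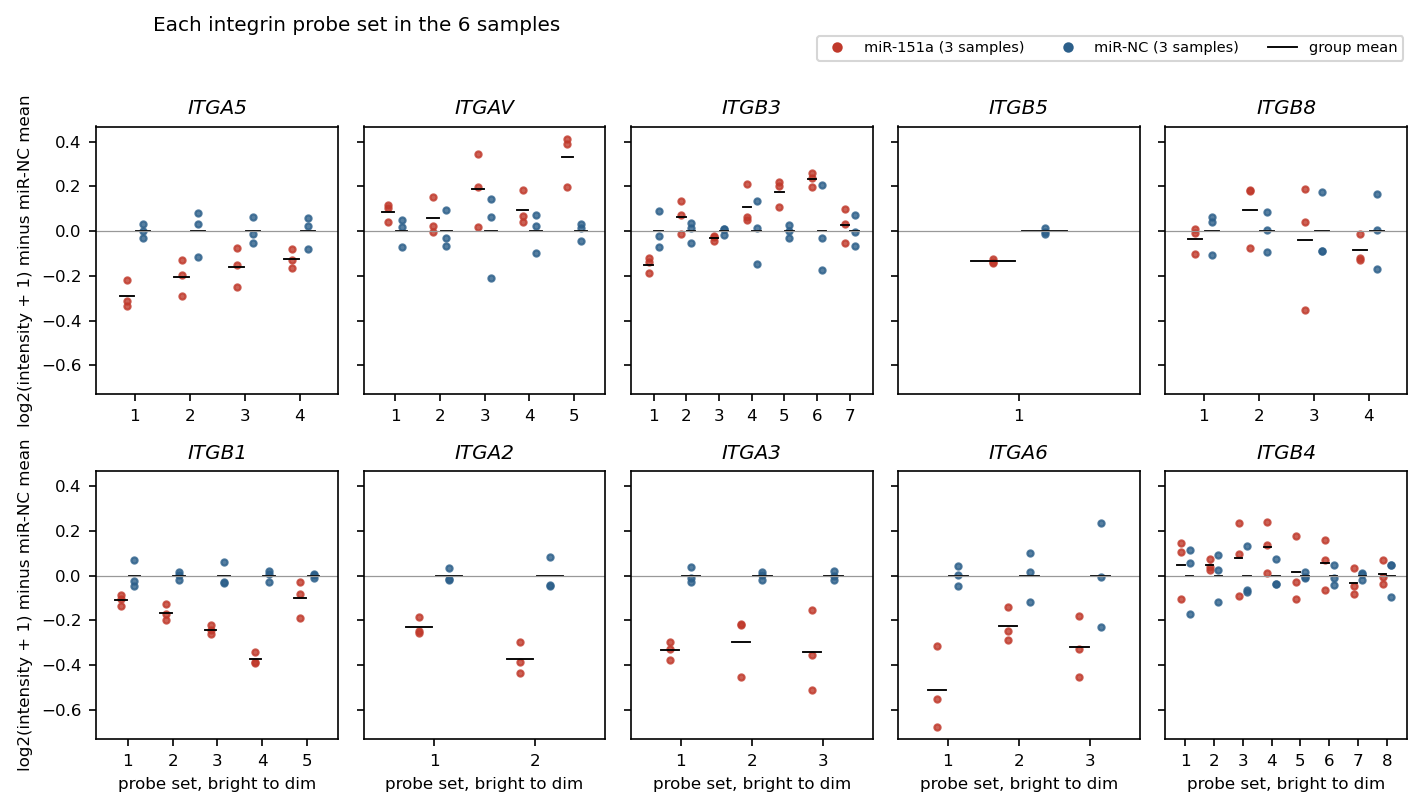
Value of each of the 6 samples for every integrin probe set, as log2(intensity + 1) minus the miR-NC mean of that probe set; numbers on the horizontal axis count a gene's probe sets from bright to dim by miR-NC mean, and short lines are group means of 3 samples. The miR-151a points lie below the miR-NC points in all 5 probe sets of ITGB1, both of ITGA2 and all 3 of ITGA3, and mix with them in all 8 of ITGB4 and all 4 of ITGB8.

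The remaining integrin subunit genes were mostly not called. Here and in the lists that follow, counts stand beside 8.11% of all genes called lower, 7.27% higher and 15.4% either way. Whether a list departed from these shares was not tested. Of 15 measured genes, counted by their brightest probe set over all genes as in the lists that follow, 1 fell and 0 rose in limma (3 higher at an unadjusted p under 0.05), with a median of 0.00 beside -0.01 for all genes and -0.12 for the 10 described genes. The gene that fell was ITGA10, an alpha subunit of a collagen receptor and a partner of ITGB1. It averaged 52.5 ± 2.33 with miR-151a and 69.9 ± 3.02 with miR-NC (SD, n = 3 each; log2 fold change -0.40, adjusted p = 0.0028 in limma), and 1 of its 3 probe sets was called lower over all probe sets. Averaged over its probe sets it was at -0.25 (adjusted p = 0.0116 in limma), and with a pseudocount of 32 at -0.27. ITGAM, described with the leukocyte markers, had the most positive change of the list, at 0.42. The count of rises in the list was 2 with a filter on dim probe sets or with the mean over probe sets.

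Of 10 collagen genes 4 fell and 0 rose in limma (0 higher at an unadjusted p under 0.05), with a median of -0.15. Over all genes 8.11% were called lower and 7.27% higher. COL1A2 averaged 1792 ± 74.8 with miR-151a and 2349 ± 29.5 with miR-NC (SD, n = 3 each; log2 fold change -0.39, adjusted p = 0.0019 in limma), and 5 of its 6 probe sets passed. COL1A1, the other chain of type I collagen, was at -0.45, COL5A2 at -0.32 and COL5A1 at -0.24. The fibrillar collagen gene COL3A1, named after its values were seen, averaged 17.1 with miR-151a and 18.9 with miR-NC, with overlapping groups (-0.13, adjusted p = 0.441 in limma). Averaged over probe sets COL1A1 was at -0.23 and COL5A2 at -0.13, and COL5A1 was not called without miR-151a replicates 1 or 3 or miR-NC replicates 1 or 3 (adjusted p up to 0.074 in limma). The 4 falls became 7 with a pseudocount of 32, with a variance trend and robust fit, or with a filter on dim probe sets.

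Of 14 genes of RGD ligands and their kin, 2 fell and 1 rose, with a median of 0.04. Over all genes 8.11% were called lower and 7.27% higher. FBN1 (fibrillin-1), a microfibril protein, averaged 1019 ± 41.4 with miR-151a and 1311 ± 24.2 with miR-NC (SD, n = 3 each; log2 fold change -0.36, adjusted p = 0.0027 in limma), and EDIL3, a secreted ITGAV ligand, was at -0.33; for each, 5 of 5 probe sets passed as lower. The matricellular gene CCN1 was at 0.19. Its rise was lost in limma without miR-151a replicate 3 or any 1 miR-NC replicate (adjusted p up to 0.081). Without miR-151a replicate 2 it stood at the threshold (adjusted p = 0.050 in limma). Averaged over its 2 probe sets CCN1 was at 0.12 (adjusted p = 0.058 in limma). Fibronectin, FN1, averaged 4171 and 4044 and osteopontin, SPP1, 5917 and 6040 with miR-151a and miR-NC, at 0.04 and -0.03, and were named after their values were seen. Of 8 laminin genes 1 rose and 2 fell. LAMB3, a chain of epithelial laminin, had intensities of 299.7, 322 and 321 with miR-151a and 151.1, 166 and 141 with miR-NC, and rose 2.06-fold (log2 fold change 1.04, adjusted p = 9.1e-05 in limma) in 2 of 2 probe sets. LAMA2, a dim probe set that averaged 38.3 with miR-151a and 47.9 with miR-NC, was at -0.32, and at -0.18 with a pseudocount of 32. LAMB1 was at -0.19, and its call was lost without any 1 sample and with quantile normalization (adjusted p from 0.070 to 0.14 and 0.0588 in limma).

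ITGAV receptors release TGF-beta from latent complexes. Of 9 genes of these complexes 1 rose and 1 fell, with a median of -0.04, where 7.27% of all genes were called higher and 8.11% lower. LTBP1, which anchors latent TGF-beta in the matrix, averaged 621 ± 34.6 with miR-151a and 866 ± 17.3 with miR-NC (SD, n = 3 each; log2 fold change -0.48, adjusted p = 0.0014 in limma), and 5 of 5 probe sets passed as lower. LRRC32, which holds latent TGF-beta at the cell surface, averaged 94.0 ± 3.55 with miR-151a and 71.7 ± 4.41 with miR-NC (SD, n = 3 each; 0.39, adjusted p = 0.0046 in limma).

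**Figure D3:**
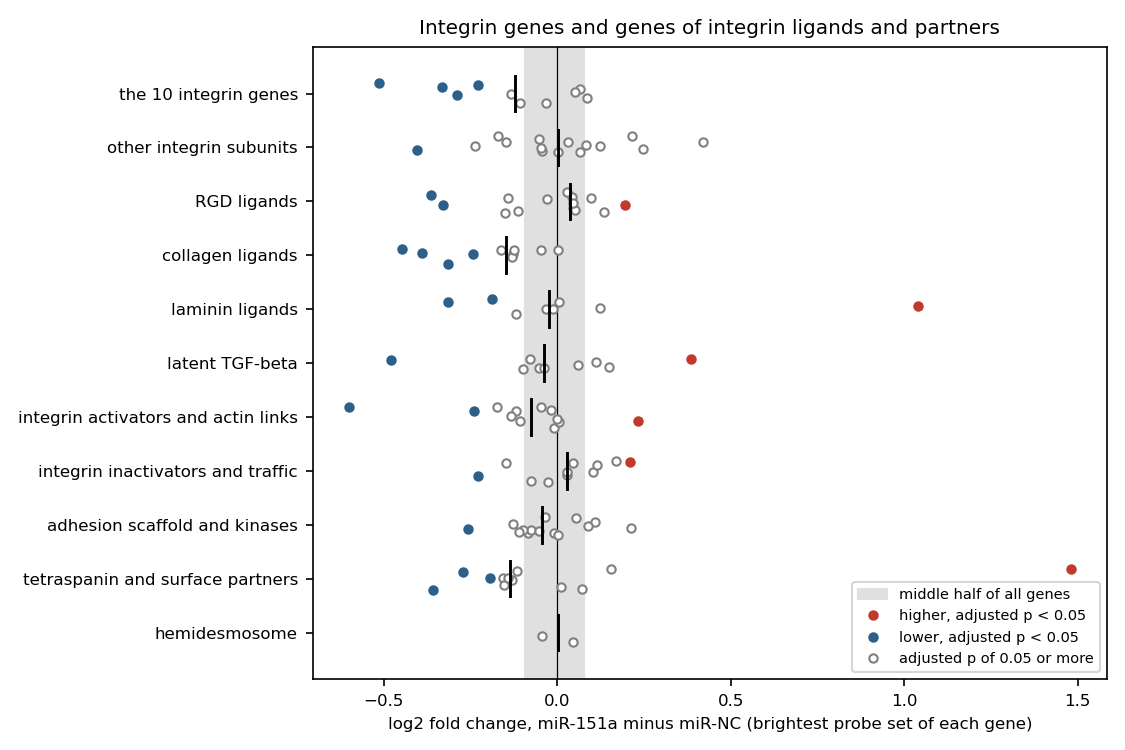
Log2 fold change (miR-151a minus miR-NC) of each gene by its brightest probe set, for the 10 integrin genes and 10 lists of related genes; each point is a gene, black lines are medians, the grey band spans the middle 50% of all 18132 genes, and vertical scatter within a row has no meaning. The 10 integrin genes have a median of -0.12 and the collagen genes of -0.15, while LAMB3 and SLC3A2 stand at 1.04 and 1.48.

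Inside the cell, talins and kindlins bind integrin beta tails and switch the receptors on. Of 12 genes of activators and actin links 2 fell and 1 rose, with a median of -0.08. Over all genes 8.11% were called lower and 7.27% higher. TLN1 (talin-1) averaged 294 ± 21.2 with miR-151a and 447 ± 18.4 with miR-NC (SD, n = 3 each; log2 fold change -0.60, adjusted p = 0.0011 in limma), with 1 of 2 probe sets called lower and a mean over both of -0.37. TLN2 (talin-2) was at -0.24, with 0 of 2 probe sets called over all probe sets and a mean over both of -0.14 (adjusted p = 0.115 in limma), and FERMT3 (kindlin-3) at 0.23. The TLN2 call was lost without any sample other than miR-151a replicate 3 and that of FERMT3 without miR-151a replicates 2 or 3 or miR-NC replicates 1 or 2 (adjusted p up to 0.14 and 0.093 in limma). Of 11 genes of inactivators and traffic 1 rose, the endocytic adaptor DAB2 at 0.21 (1 of 4 probe sets called), and 1 fell, ITGB3BP, named for binding the ITGB3 tail, at -0.23. Both were lost in 5 of 6 limma fits without 1 sample, DAB2 in all but that without miR-NC replicate 1 and ITGB3BP in all but that without miR-151a replicate 2 (adjusted p up to 0.095 and 0.13). Averaged over its probe sets DAB2 was at 0.11 (adjusted p = 0.0931 in limma).

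Over all genes 8.11% were called lower and 7.27% higher. Of 14 adhesion scaffold and kinase genes 1 fell and 0 rose in limma (1 higher at an unadjusted p under 0.05), with a median of -0.04. It was PTK2, which averaged 599 ± 18.8 with miR-151a and 716 ± 32.7 with miR-NC (SD, n = 3 each; log2 fold change -0.26, adjusted p = 0.016 in limma; 0.053 without miR-NC replicate 1). Of 12 tetraspanins and other surface partners 3 fell and 1 rose, with a median of -0.14. CD9, a tetraspanin that binds ITGB1 receptors, averaged 1814 ± 46.8 with miR-151a and 2325 ± 57.5 with miR-NC (SD, n = 3 each; -0.36, adjusted p = 0.0023 in limma), with 6 of 9 probe sets past the threshold as lower and a mean over them of -0.23. PLAUR, the urokinase receptor, was at -0.27 and the proteoglycan SDC1 at -0.19, of which SDC1 was not called without any 1 sample (adjusted p from 0.054 to 0.093 in limma). SLC3A2, which binds integrin beta tails and is also an amino acid transporter subunit, rose 2.79-fold (log2 fold change 1.48) in 7 of 7 probe sets. The hemidesmosome genes PLEC and DST were at 0.04 and -0.04, and 0 of these 2 passed in limma by the brightest probe set (0 also at an unadjusted p under 0.05). Of the 8 probe sets of DST, 2 were called lower over all probe sets.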

How the data were processed

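Groups and replicate numbers came from the sample titles. The authors deposited 1 linear intensity per probe set and sample; per the submitters' processing notes MAS5 was named, with no version or role. The sources used here do not give background correction, summarization or scaling. Detection calls were not used here. The 102 control probe sets were left out. Gene names came from the platform's annotation, and old symbols were brought up to date with RefSeq by Entrez identifier: 44988 probe sets named 1 gene (44961 matched), 1832 several and 2473 none.

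Values were analysed as log2(intensity + 1) in limma 3.58.1 (R 4.3.3) by lmFit and eBayes without covariates. P-values were adjusted by Benjamini-Hochberg over 49293 probe sets, or over 18132 genes where each gene was given by its brightest probe set. With 3 samples against 3 an exact permutation test cannot go below p = 0.1. Members and gene lists were chosen with earlier results of these data known. All member probe sets are counted and plotted, but not each is given by value in the text. Of a list, up to 4 genes with the smallest p-values past the threshold are named, or 2 where none passed. PTK2 is named as the host gene of miR-151a. Genes named outside this rule are marked as named after their values were seen. The code was tested on simulated data. Settings tried in turn were leaving out each sample, the mean over probe sets, a replicate block, array weights, a pseudocount of 32, a filter on dim probe sets (below the 0.25 quantile), centring on the median, quantile normalization, and eBayes with both trend and robust options.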

Additional observations from a re-analysis of the deposited data

How the results depend on the processing

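Of the 42 member probe sets, 5 lay in the lowest quartile of levels, and 0 of these passed in limma (1 lower at an unadjusted p under 0.05). The 9 falls among member probe sets were 16 with a variance trend and robust fit and 5 with the replicate number as a block, and 5 to 8 without 1 sample. Without miR-151a replicate 2 the count turned on ITGB1 11715728_a_at, which stood at the threshold (adjusted p = 0.050 in limma). The single rise was 2 with quantile normalization, a pseudocount of 32, array weights, a variance trend and robust fit, or a filter on dim probe sets, and 0 to 1 without 1 sample. The 4 genes that fell by the brightest probe set were 3 with the replicate block, 6 with the mean over probe sets or the variance trend, and 3 to 4 without 1 sample. Deviations of same-numbered samples from their group means correlated at -0.08, -0.12 and 0.07, and not every sample correlated best with its own number. These values cannot decide whether samples were paired, since deviations from a mean of 3 samples depend on each other. In the lists, the variance trend and robust fit gave 7 falls for 4 among collagens, 6 for 2 among activators and 7 for 3 among surface partners. All sign changes were in probe sets that did not pass in either fit. They were -0.0017 (quantile normalization), -0.0035 (median centring) and -0.0063 (array weights) for ITGB4 11752304_a_at and -0.0059 (array weights) for ITGB4 11733099_a_at. Without 1 sample, values spanned 0 for ITGB4 11752304_a_at (-0.0385 to 0.0332), 11733099_a_at (-0.0659 to 0.0759), 11733098_a_at (-0.0115 to 0.0933) and 11726794_x_at (-0.0352 to 0.1275), for ITGB8 11722503_at (-0.0858 to 0.0006) and 11749103_a_at (-0.1554 to 0.1142), and for ITGB3 11761491_at (-0.0097 to 0.0643). The cause was not tested.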
